A study of Rattus norvegicus with 6 samples.

Results

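The sarcomere and Z-disc genes described here are 39 named genes of the cardiac contractile apparatus, read out by RNA-seq in rat neonatal cardiomyocytes in primary culture. They were chosen by gene symbol: 9 of the thin filament, 7 of the thick filament, 3 of titin and the M-band, 16 of the Z-disc and I-band, and 4 chaperones and assembly factors. The deposited table listed 43035 features, of which 32883 were annotated genes and 10152 were unannotated transcripts. Of the 39 genes, 36 had a row under their own name, and Ttn, Lmod2 and Tcap had none. The cells came from hearts of Sprague-Dawley rats at postnatal day 1 by the labels (the methods give a slightly wider age range) and were collected 48 h after transfection. The si-NC group (n = 3) received a scrambled siRNA and the si-DYRK1A group (n = 3) an siRNA against DYRK1A, a protein kinase. The comparison asks how the RNA of the contractile apparatus differed when cells had been given the siRNA against this kinase. The cultures were enriched by letting non-muscle cells attach first, and the labels do not say whether the replicates were separate isolations, so the p-values measure only the spread between these libraries.

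A cardiomyocyte contracts through sarcomeres, repeating units in which thin filaments of actin slide past thick filaments of myosin. Troponin and tropomyosin on the thin filament make the sliding depend on calcium, titin spans the unit from the Z-disc to the M-band, and the Z-disc anchors the thin filaments of neighbouring sarcomeres through α-actinin. Around birth the rodent heart exchanges fetal isoforms, such as slow skeletal troponin I (Tnni1), for adult isoforms, such as cardiac troponin I (Tnni3). Serum response factor, which binds the CArG box, and the MEF2 factors, which bind the MEF2 box, are long known as regulators of such genes.

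The promoters of 31 of the 39 genes were matched in the RefSeq table of the rat genome GRCr8, from 250 bases before to 50 bases after the start. On both strands, the CArG box was found in promoters of 5 of the 31 genes and in 1.64% of all 33469 promoters. A gene was counted when any of its promoters matched, whereas the share of all promoters counts each promoter. These windows are shown because they hold the box in both sarcomeric actins, a myosin light chain and the Z-disc genes Ldb3 and Nebl, and capitals mark the box.
Actc1 (chr3:121271791-121271850, minus strand): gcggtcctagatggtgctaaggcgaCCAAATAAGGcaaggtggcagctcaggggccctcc
Acta1 (chr19:68784254-68784313, minus strand): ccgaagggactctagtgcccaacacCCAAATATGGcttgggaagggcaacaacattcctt
Myl3 (chr8:119616972-119617031, plus strand): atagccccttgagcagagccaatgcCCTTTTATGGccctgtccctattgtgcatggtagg
Ldb3 (chr16:9924697-9924756, minus strand): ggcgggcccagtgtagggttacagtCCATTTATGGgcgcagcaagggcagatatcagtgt
Nebl (chr17:85135439-85135498, minus strand): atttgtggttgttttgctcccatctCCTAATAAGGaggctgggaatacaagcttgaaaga

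The MEF2 box was found in promoters of 6 of the 31 genes and in 0.565% of all promoters, and it overlapped no CArG box in these genes. These windows are shown because Xirp2, the tested gene row with the most negative log2 fold change, is among them. In the edgeR test described below, no tested row, transcript or locus of the other genes shown had an adjusted p below 0.05. Capitals again mark the box.
Xirp2 (chr3:72534087-72534146, plus strand): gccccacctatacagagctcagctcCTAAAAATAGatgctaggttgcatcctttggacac
Mybpc3 (chr3:97550927-97550986, plus strand): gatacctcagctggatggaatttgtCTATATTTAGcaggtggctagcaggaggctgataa
Ttn (chr3:82332242-82332301, minus strand): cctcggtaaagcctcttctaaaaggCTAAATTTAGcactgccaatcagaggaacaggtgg
Myoz2 (chr2:213852797-213852856, minus strand): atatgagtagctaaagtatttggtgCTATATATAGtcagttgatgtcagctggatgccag
Smpx (chrX:41107204-41107263, minus strand): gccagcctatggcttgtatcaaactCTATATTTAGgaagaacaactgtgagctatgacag
Hspb7 (chr5:159010638-159010697, plus strand): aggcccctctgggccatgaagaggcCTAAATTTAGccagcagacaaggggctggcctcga
The shorter MCAT motif CATTCC was found in promoters of 8 of the 31 genes, against 14.2% of all promoters. The letters TATAAA were found in 5, against 14.2% of all promoters. These matches are descriptions of the reference sequence and say nothing about binding in these cells. The remaining 8 genes (Tnnc1, Myl2, Ankrd1, Csrp3, Tcap, Cryab, Myom2 and Pdlim3) were not matched in that table.

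Each library held 10325074 to 11921772 counts, with similar ranges in both groups. Of 15513 features tested with the quasi-likelihood test of edgeR, 2360 had a Benjamini-Hochberg adjusted p below 0.05, which is 15.2% of them, and such features are termed called. They were higher in the libraries labelled si-DYRK1A for 8.03% of the tested features, and lower for 7.19%. Dyrk1a itself had 0 to 3 counts per library and was not tested. An unannotated transcript that spans it had 77.7 ± 3.22 CPM, which are counts scaled by library size (mean ± SD, n = 3), in si-NC and 82.4 ± 2.70 CPM in si-DYRK1A libraries (log2 fold change 0.08, SE 0.0575, edgeR adjusted p = 0.374), so the RNA level of the target did not check the labels. For the knockdown in neonatal cardiomyocytes, the paper instead shows an immunoblot of DYRK1A protein 48 h after transfection, a measure not available here. Of 20 cardiomyocyte genes outside the sarcomere, 13 were tested, 5 rose and 1 fell. Their summed level was 14650 to 15310 CPM in si-NC and 17840 to 18610 CPM in si-DYRK1A libraries, while Ryr2 had 1 to 7 counts. Nppa, with means of 7557 and 9782 CPM, gave most of the rise in that sum, whereas Hrc fell and 7 of the 13 were not called. Of 12 fibroblast genes, 7 were tested and 2 rose (sums of 22110 to 26830 and 20920 to 21670 CPM), and Pdgfra was at 0. Most of the fibroblast sum was Col1a1 and Col3a1: Col1a1, which was not called, had means of 14340 and 11110 CPM (log2 fold change -0.37, edgeR adjusted p = 0.0869), whereas Lum and Postn rose and the median of the list was 0.14. Of 8 smooth muscle genes, 4 were tested and 2 rose (926.3 to 971.2 and 1212 to 1268 CPM), and Myh11 and Acta2 were at 0. Most of the difference in that sum was Synpo2, with means of 320 and 583 CPM, while Cnn1 was at 556 and 554 CPM. Of 8 endothelial genes, 6 were tested and 3 fell (169.8 to 188.5 and 137.8 to 143.7 CPM), and Cdh5 and Kdr had 331 to 466 counts. Tek, with means of 50.2 and 29.8 CPM, gave the largest part of that difference. Cdh5 fell as well, while Kdr was not called, with means of 37.05 and 36.69 CPM. Of 9 macrophage genes, 7 were tested and 1 rose (276.8 to 292.5 and 276 to 317.7 CPM), and Cd68 was at 0. Except for the macrophage list, the ranges of these sums did not overlap between the groups, and their part in the results below was not tested. In a bulk culture, fewer cells of a type and less RNA per cell cannot be told apart. Unannotated transcripts lying over these marker genes were not looked up. A marker row at or near 0 counts is therefore not reported as a low level of its RNA or as absence of a cell type.

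Of the 36 gene rows, 22 passed the filter on low counts and were tested. Among them 5 rose (Pdlim3, Tnni1, Actn2, Unc45b and Actc1), 4 fell (Xirp2, Mypn, Flnc and Des) and 13 were not called, where 8.03% of all features rose and 7.19% fell. These are rows that passed a filter, not all members, and their median log2 fold change was 0.00, as was the median of all features tested. The groups did not overlap for 10 of the 22 rows, beside 31.5% of all tested features. Of the 15 rows with a mean of at least 1000 counts, 7 were called, beside 29.9% of all tested features at that depth. The called rows had a median absolute log2 fold change of 0.339, and all called features had one of 0.377. Without si-DYRK1A replicate 2, 3 members instead of 5 rose. When libraries were scaled by their size alone, the median of all features moved to -0.02 and the share of higher calls from 52.8% to 44.3%, and 4 members rose and 5 fell.

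The rows that could be tested differed by what lay over them in the annotation, a division made after the data had been seen. For 20 of the 36 genes, an unannotated transcript of the same strand covered at least 50% of the gene. Of these 20 covered gene rows, 9 had 0 counts in all libraries, 5 had at most 6 counts in any library, and 6 had 10 or more counts in every library. All 16 rows with no such transcript had 10 or more counts in every library and were tested. Of these, 4 rose and 3 fell, beside calls for 15.2% of all tested features and 29.9% at a mean of at least 1000 counts. The rule that counted reads shared by a gene and a covering transcript is not given in the sources used here, and its part in this pattern was not tested. A low count in a covered row is therefore not reported as a low level of the gene's RNA.

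**Figure D1:**
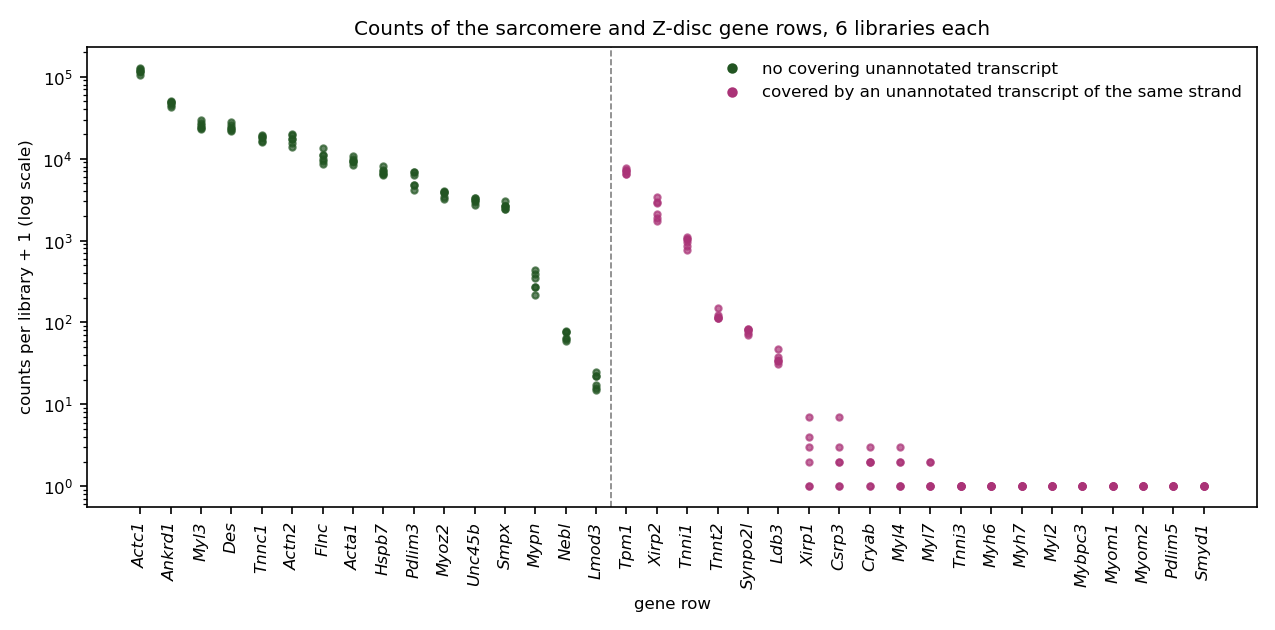
Counts per library plus 1 (log axis) for the 36 gene rows, with 6 points per gene, rows without a covering unannotated transcript on the left of the dashed line and covered rows on the right. All 16 uncovered rows lie at 10 or more counts in every library, whereas 9 of the 20 covered rows lie at 0 counts throughout.

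Per length, the uncovered rows spanned a wide range of levels. In FPKM, which are counts scaled by feature length and by library (mean of si-NC), cardiac α-actin Actc1 stood at 6659, the essential myosin light chain Myl3 at 2603, the stress-responsive ankyrin repeat protein Ankrd1 at 2334, and cardiac troponin C Tnnc1 at 1883. The intermediate filament protein desmin Des followed at 1032, skeletal α-actin Acta1 at 581 and α-actinin 2 Actn2 at 454. At the lower end were myopalladin Mypn at 6.37, nebulette Nebl at 1.27 and leiomodin 3 Lmod3 at 0.731 FPKM. An unannotated transcript over 31.2% of Nebl stood at 38.3 FPKM, so the low value of the Nebl row is not reported as a low level of its RNA. Myl3 and Ankrd1 were neighbours in this order, and their si-NC SDs were 162 and 69.1 FPKM.

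In the thin filament, Tnni1 and Actc1 rose, and the other 5 tested rows were not called, where 8.03% of all tested features rose and 7.19% fell. Tnni1, the slow skeletal troponin I of the fetal heart (chr13:52624878-52637297 in the genome build Rnor_6.0, plus strand), had 72.5, 72.0 and 79.3 CPM in the si-NC libraries and 91.9, 103 and 91.5 CPM in the si-DYRK1A libraries. All 3 si-DYRK1A values lay above all 3 si-NC values. The means were 74.6 ± 4.07 and 95.6 ± 6.71 CPM (log2 fold change 0.36, SE 0.0619, edgeR adjusted p = 3.27e-04), and over all alternatives the adjusted p ran from 5.86e-07 to 0.0625, the latter with limma on log2(FPKM + 1) without a filter. This row is covered by an unannotated transcript that also rose, from 91, 86 and 89 counts to 127, 117 and 125 counts (log2 fold change 0.50, SE 0.144, edgeR adjusted p = 0.0221). Its groups did not overlap. Its call held when si-NC replicate 1 was left out (adjusted p = 0.0205) and was lost when any of the other 5 libraries was left out, with an edgeR adjusted p of 0.0708 or 0.0647 after removing replicate 2 or 3 of si-NC, and of 0.0607, 0.0661 or 0.0587 after removing replicate 1, 2 or 3 of si-DYRK1A. With both rows added, Tnni1 rose by 0.37 on the log2 scale (SE 0.058, edgeR adjusted p = 1.11e-04).

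Actc1, the main sarcomeric actin of the heart (chr3:105507403-105512939, minus strand), had 10080, 9938 and 9908 CPM in si-NC and 10820, 10730 and 11090 CPM in si-DYRK1A libraries. The groups did not overlap, although the difference was small. The means of 9976 ± 92.6 and 10880 ± 192 CPM gave a log2 fold change of 0.13 (SE 0.0357, edgeR adjusted p = 0.0193), a rise of 9.06%. The call was lost without si-NC replicate 1 (edgeR adjusted p = 0.0503), si-DYRK1A replicate 2 (0.0564) or si-DYRK1A replicate 3 (0.168), and with scaling by library size alone (0.0598). Over all alternatives the adjusted p of Actc1 ran from 0.00987 to 0.168, and its log2 fold change from 0.10 to 0.14. Acta1, the α-actin of skeletal muscle that the immature heart also makes, had 807, 920.1 and 792 CPM in si-NC and 818, 845 and 864 CPM in si-DYRK1A libraries. These values overlapped, with a log2 fold change of 0.00 (SE 0.0507, edgeR adjusted p = 0.968, 95% confidence interval -0.10 to 0.11).

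Among the regulatory proteins of the thin filament, Tnnc1, the calcium sensor, had 1552 to 1578 CPM in si-NC and 1551 to 1700 CPM in si-DYRK1A libraries (log2 fold change 0.04, edgeR adjusted p = 0.592). Tpm1, α-tropomyosin, had 594 to 651 and 606 to 635 CPM, and its interval for the log2 fold change ran from -0.09 to 0.09. Tnnt2, which ties the troponin complex to tropomyosin, had only 111 to 148 counts per library in a covered row, and its covering transcript had 8 to 16. Neither Tnnt2 row was called (edgeR adjusted p = 0.595 and 0.827). Lmod3, an actin-nucleating leiomodin, had 14 to 24 counts, at which a log2 fold change of -0.93 to 0.50 lay within the interval. Tnni3, the adult cardiac troponin I, had 0 counts in its own row, and the transcript over it also covers Dnaaf3. That shared transcript had 15.1 to 22.2 CPM in si-NC and 18.3 to 19.5 CPM in si-DYRK1A libraries (log2 fold change -0.02, edgeR adjusted p = 0.954), and it cannot be assigned to Tnni3.

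Lmod2, a leiomodin that lengthens thin filaments, has no row of its name. Between its RefSeq neighbours Asb15 and Wasl lay a gene described as leiomodin-2-like (chr4:51661654-51671203, plus strand), a locus that was looked up after the data had been seen. Its counts were 120, 54 and 66 in si-NC and 46, 56 and 43 in si-DYRK1A libraries. The high value of si-NC replicate 1 set it apart from the other 5 libraries, and the groups overlapped. The log2 fold change was -0.72 (edgeR adjusted p = 0.252), -0.96 without si-NC replicate 2 (adjusted p = 0.0359) and -0.22 without si-NC replicate 1 (adjusted p = 0.617). Over all alternatives the adjusted p of this locus ran from 0.00632 to 0.617.

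In the thick filament, 1 of 7 gene rows was tested and none was called. Myl3, the essential light chain of ventricular myosin (chr8:119030875-119036996, plus strand), had 2277, 2525 and 2285 CPM in si-NC and 2168, 2193 and 2204 CPM in si-DYRK1A libraries. All si-DYRK1A values lay below all si-NC values, with si-NC replicate 2 highest. The log2 fold change was -0.11 (SE 0.0425, edgeR adjusted p = 0.0878). The adjusted p passed the threshold without si-NC replicate 3 (0.039), with scaling by library size alone (0.0298) and with no filter on low counts (0.0317), and over all alternatives it ran from 0.0298 to 0.317.

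The heavy chains Myh6 and Myh7, the fast and slow motors of the cardiac thick filament, had 0 counts in their own rows. Both lie under the same unannotated transcript (chr15:33514307-33657764, minus strand), which also covers Efs, Homez, Mir208b, Ppp1r3e and Slc22a17. That transcript had 151, 115 and 135 CPM in si-NC and 134, 129 and 109 CPM in si-DYRK1A libraries. The groups overlapped (log2 fold change -0.11, SE 0.132, edgeR adjusted p = 0.679), and the row cannot be divided between the 2 myosins. The gene row of Mybpc3, myosin-binding protein C, had 0 counts, and the transcript over it had 26 to 28 counts in si-NC and 30 to 44 in si-DYRK1A libraries. Its groups did not overlap, but with so few counts the log2 fold change of 0.46 had an interval of -0.07 to 0.98 (edgeR adjusted p = 0.261). Myl2, the ventricular regulatory light chain, had 0 counts in its row and 50 to 79 in its transcript (log2 fold change -0.04, edgeR adjusted p = 0.915). Myl7, the atrial regulatory light chain, had 0 to 1 counts in its row and 0 to 3 in its transcript, and neither was tested.

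Pairs of fetal or atrial against adult or ventricular forms were compared by the log2 ratio of their counts within each library. The ratio of Acta1 to Actc1 was -3.64, -3.43 and -3.65 in si-NC and -3.73, -3.67 and -3.68 in si-DYRK1A libraries. All 3 si-DYRK1A ratios lay below those of si-NC, by 0.12 on average (-3.57 ± 0.122 against -3.69 ± 0.0305, n = 3, two-sided exact permutation test p = 0.1, the smallest p that 3 against 3 allows). Most of the spread in si-NC came from replicate 2, and the difference ran from -0.15 to -0.05 when single libraries were omitted. For the atrial light chain Myl4, the covering transcript had 10, 8 and 15 counts in si-NC and 4, 4 and 3 in si-DYRK1A libraries, too few for the edgeR test. Its log2 ratio to Myl3 was -11.3 ± 0.523 and -12.7 ± 0.293 (n = 3, two-sided exact permutation test p = 0.1, the smallest possible). No ratio could be formed for Myh7 to Myh6 or for Tnni1 to Tnni3, where a row was shared with another gene, nor for Myl7 to Myl2, where a library had 0 counts.

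Titin, the giant elastic protein, and the M-band proteins had no tested gene row. In the interval between Plekha3 and Ccdc141, where RefSeq places Ttn, the table held unannotated transcripts on the minus strand that were looked up after the data had been seen. The first (chr3:63565142-63605449) is listed with immunoglobulin, fibronectin type III and protein kinase domains, and the other (chr3:63606878-63836017) with a Titin Z domain. The part with the kinase domain had 1638, 1593 and 1363 CPM in si-NC and 1874, 1564 and 1551 CPM in si-DYRK1A libraries. The part with the Titin Z domain had 1008, 856 and 806 CPM in si-NC and 1263, 966 and 907 CPM in si-DYRK1A libraries. In both, si-DYRK1A replicate 1 was the highest library and the groups overlapped. The log2 fold changes were 0.12 (95% confidence interval -0.17 to 0.41, edgeR adjusted p = 0.581) and 0.23 (-0.24 to 0.71, adjusted p = 0.487). Over all alternatives the adjusted p ran from 0.123 to 0.88 for the part with the kinase domain and from 0.002 to 0.742 for the part with the Titin Z domain. Myom1, the myomesin that crosslinks thick filaments at the M-band, and its relative Myom2 had 0 counts in their gene rows. Their transcripts had 29.4 to 35.9 and 12.3 to 14.5 CPM, with log2 fold changes of -0.06 and 0.03 (edgeR adjusted p = 0.709 and 0.896).

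Of 12 tested gene rows of the Z-disc and I-band, 2 rose and 4 fell, beside 8.03% and 7.19% of all tested features. At a mean of at least 1000 counts, 29.9% of all tested features were called. Among the called rows were those with the most positive and the most negative log2 fold change of the 22. Pdlim3, a PDZ and LIM domain protein that binds α-actinin (chr16:49543142-49574390, minus strand), had 402, 406 and 402 CPM in si-NC and 597, 595 and 589.9 CPM in si-DYRK1A libraries. The libraries of each group were nearly equal, and the groups were far apart. The means of 403 ± 2.21 and 594 ± 3.81 CPM gave a log2 fold change of 0.56 (SE 0.0399, edgeR adjusted p = 3.31e-09), a level 1.48 times that of si-NC. Actn2, the α-actinin of the cardiac Z-disc (chr17:66304501-66397653, minus strand), had 1334, 1453 and 1289 CPM in si-NC and 1687, 1643 and 1708 CPM in si-DYRK1A libraries. Again no value overlapped, and the log2 fold change was 0.31 (means 1359 ± 84.9 and 1679 ± 33.4 CPM, SE 0.0442, edgeR adjusted p = 4.58e-05). Both calls held in every alternative run, with adjusted p of at most 0.00385 for Pdlim3 and 0.0462 for Actn2.

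The relatives of Pdlim3 were read from covering transcripts. Ldb3, also known as ZASP or Cypher, another PDZ and LIM protein of the Z-disc, had 30 to 46 counts per library in its gene row (log2 fold change 0.09, edgeR adjusted p = 0.863). Its covering transcript (chr16:10878505-10943059, minus strand) had 79.5, 71.9 and 73.8 CPM in si-NC and 98.0, 100.9 and 105 CPM in si-DYRK1A libraries. All si-DYRK1A values were higher, with means of 75.1 ± 3.95 and 101.3 ± 3.56 CPM (log2 fold change 0.43, SE 0.0569, edgeR adjusted p = 1.43e-05). This call held in every alternative run, with an adjusted p of at most 0.0477. Pdlim5, or ENH, which links kinases to the Z-disc, had 0 counts in its gene row. Its transcript (chr2:247812287-247988462, minus strand) had 725, 778 and 782 CPM in si-NC and 876, 851 and 846 CPM in si-DYRK1A libraries. The groups did not overlap (log2 fold change 0.17, SE 0.042, edgeR adjusted p = 0.00675), but without si-NC replicate 1 the adjusted p was 0.0695, and over all alternatives it ran from 0.00291 to 0.146. Nebl, a nebulin relative that reaches from the Z-disc into the I-band, had 59 to 78 counts in its gene row (edgeR adjusted p = 0.779). A transcript over 31.2% of it, chosen after the data had been seen, had 342, 360 and 348 CPM in si-NC and 411, 394 and 399.7 CPM in si-DYRK1A libraries. These values did not overlap, and the log2 fold change was 0.20 (SE 0.0422, edgeR adjusted p = 0.00226, 0.000971 to 0.0766 over all alternatives).

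Of the 19 covering transcripts of the members, which leave out the partial transcript of Nebl, 13 were tested. The 3 that were called rose, those over Ldb3, Tnni1 and Pdlim5, beside 11.7% called among all unannotated transcripts tested. DESeq2 called 2 of them, and that over Tnni1 had an adjusted p of 0.0625 there. With the counts of each gene and its own covering transcript added, 29 gene rows of the members were tested and 11 were called, of which 7 rose and 4 fell, beside 15.2% of all features tested in that setting.

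Of the Z-disc genes that fell, Xirp2, a large actin-binding protein of Z-discs and intercalated discs (chr3:53563194-53658132, plus strand), had 274, 286 and 247 CPM in si-NC and 183, 165 and 162 CPM in si-DYRK1A libraries. The highest si-DYRK1A value was well below the lowest si-NC value. The means of 269 ± 19.8 and 170 ± 11.6 CPM gave a log2 fold change of -0.66 (SE 0.0584, edgeR adjusted p = 5.17e-07). The transcript that covers Xirp2 had 0 counts in all libraries. Mypn, or myopalladin, which binds nebulette and α-actinin (chr20:26988774-27074138, plus strand), had 32.9, 36.9 and 32.4 CPM in si-NC and 23.8, 20.3 and 23.1 CPM in si-DYRK1A libraries. No value overlapped, and the log2 fold change was -0.60 (means 34.0 ± 2.47 and 22.4 ± 1.90 CPM, SE 0.0920, edgeR adjusted p = 8.18e-05). The calls of Xirp2 and Mypn held in every alternative run, with adjusted p of at most 0.0215 and 0.0452.

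Flnc, filamin C, an actin crosslinker at the Z-disc (chr4:56711049-56738791, plus strand), had 1075, 1148 and 935 CPM in si-NC and 831, 818 and 849 CPM in si-DYRK1A libraries. The si-NC libraries were spread more widely, but all lay above the si-DYRK1A libraries. The log2 fold change was -0.34 (means 1053 ± 108 and 833 ± 16.0 CPM, SE 0.0631, edgeR adjusted p = 0.00371). The call held whichever library was left out and was lost with limma on log2(FPKM + 1), where the adjusted p was 0.0505 (3.98e-14 to 0.0955 over all alternatives). Des, whose filaments tie neighbouring Z-discs together (chr9:82556573-82564294, plus strand), had 2275, 2358 and 2145 CPM in si-NC and 1950, 2067 and 2074 CPM in si-DYRK1A libraries. The groups did not overlap, yet lay close to each other. The log2 fold change was -0.15 (means 2259 ± 107 and 2031 ± 69.7 CPM, SE 0.0425, edgeR adjusted p = 0.0161). The adjusted p of Des was 0.0679 without si-NC replicate 1 and 0.0945 without si-DYRK1A replicate 1, and ran from 0.00109 to 0.16 over all alternatives.

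**Figure D2:**
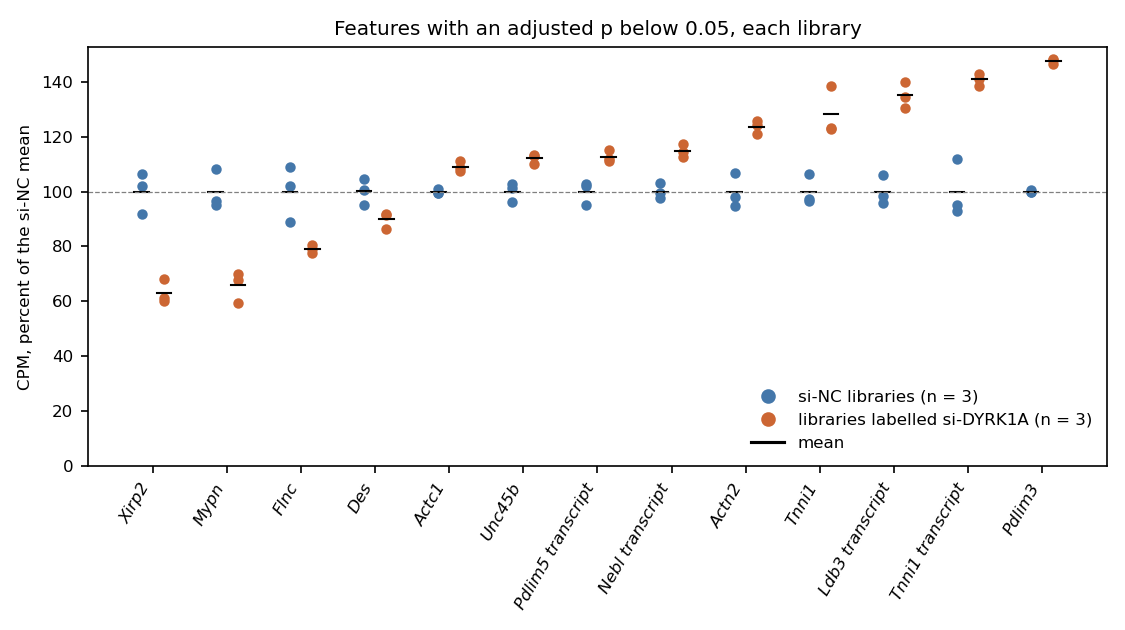
CPM of each called gene row and transcript in every library as a percent of its si-NC mean (linear axis from 0), with a bar at the mean of each group. Xirp2 and Mypn lie lowest in the 3 si-DYRK1A libraries and Pdlim3 highest, and no called feature has overlapping groups.

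The other tested genes of the Z-disc and I-band were not called. Myoz2, calsarcin 1, which holds calcineurin at the Z-disc, had 304 to 335 CPM in si-NC and 324 to 349.6 CPM in si-DYRK1A libraries (log2 fold change 0.06, edgeR adjusted p = 0.419). Ankrd1 had 4046 to 4265 and 4174 to 4322 CPM, and its interval for the log2 fold change ran from -0.05 to 0.11. Smpx, a small muscle protein, had 223 to 251 and 228 to 230 CPM (log2 fold change -0.04, edgeR adjusted p = 0.658). Synpo2l, a relative of the actin-binding protein synaptopodin 2, had 69 to 83 counts in its row and 129 to 227 in its transcript. Neither Synpo2l row was called (edgeR adjusted p = 0.754 and 0.837), and their log2 fold changes of -0.10 and 0.09 had opposite signs. Xirp1, the smaller relative of Xirp2, had 0 to 6 counts in its own row, and its transcript had 82 to 120 counts (log2 fold change 0.09, interval -0.25 to 0.42, edgeR adjusted p = 0.784). Csrp3, the muscle LIM protein, had 0 to 6 counts in its row and 1 to 6 in its transcript. Between Stard3 and Pnmt, where RefSeq places the titin cap gene Tcap, the listed rows had 0 to 6 counts, a locus also looked up after the data had been seen. Neither Csrp3 nor the Tcap locus could be tested at this depth.

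Of the chaperones and assembly factors, Unc45b rose and Hspb7 was not called. Unc45b, a chaperone that folds the myosin head (chr10:70262361-70290445, plus strand), had 263, 267 and 249.5 CPM in si-NC and 293, 294 and 286 CPM in si-DYRK1A libraries. The groups did not overlap (means 259.7 ± 9.06 and 291 ± 4.46 CPM, log2 fold change 0.16, SE 0.0439, edgeR adjusted p = 0.0131). The adjusted p of Unc45b was 0.0634 without si-NC replicate 3 and 0.0697 without si-DYRK1A replicate 2, and ran from 0.00912 to 0.108 over all alternatives. Smyd1, a muscle methyltransferase that acts with such chaperones on myosin, had 0 counts in its gene row, and its transcript had 181, 192 and 177 CPM in si-NC and 204, 189 and 190.1 CPM in si-DYRK1A libraries. These values overlapped (log2 fold change 0.08, SE 0.0486, edgeR adjusted p = 0.283). Hspb7, a small heat shock protein of heart muscle, had 588 to 685 and 594 to 623 CPM (log2 fold change -0.04, edgeR adjusted p = 0.703). Cryab, the small heat shock protein αB-crystallin, had 0 to 2 counts in its row and 5 to 12 in its transcript, and was not tested.

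**Figure D3:**
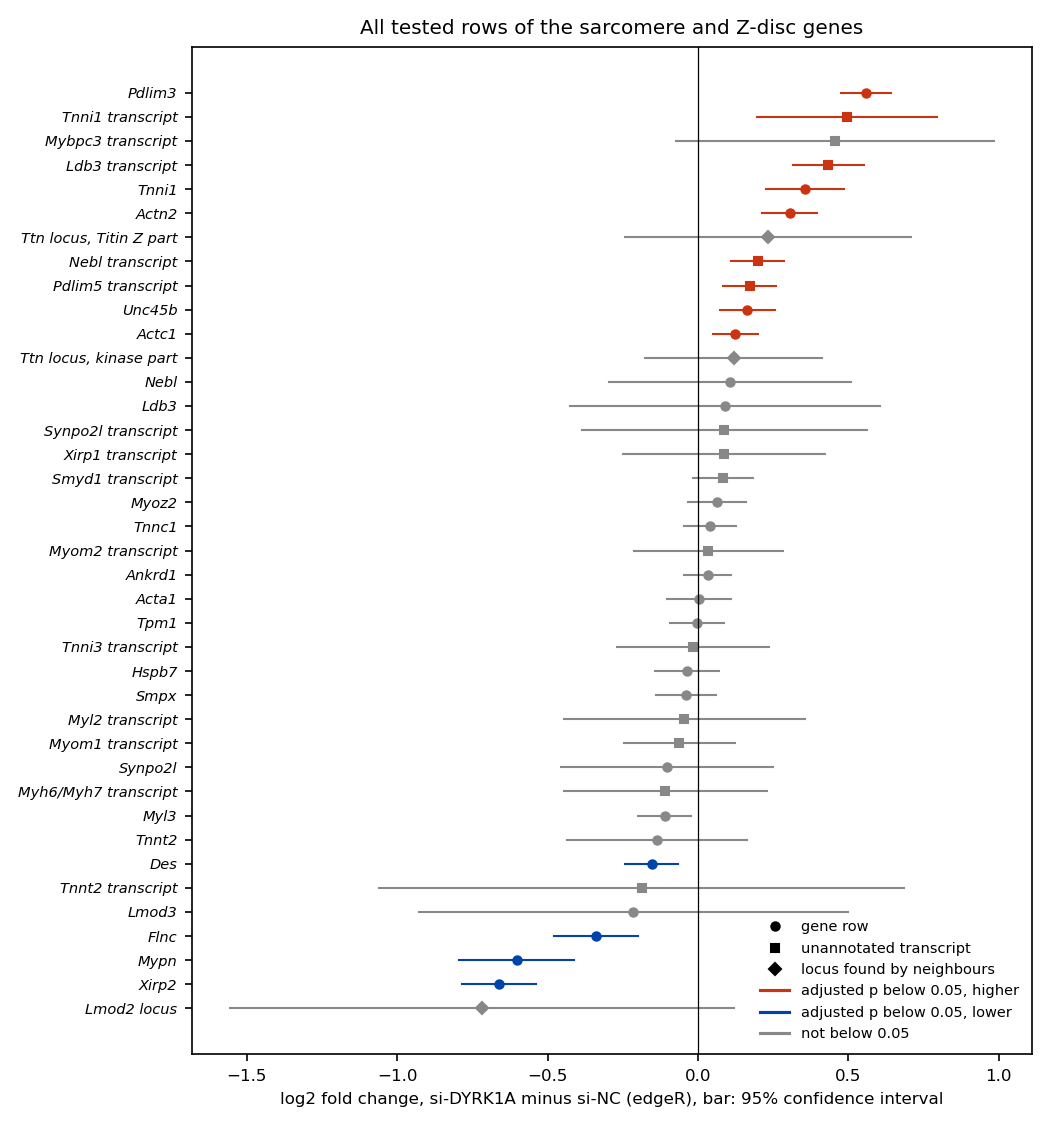
The log2 fold changes (si-DYRK1A minus si-NC, edgeR) with 95% confidence intervals for all tested gene rows (circles), unannotated transcripts (squares) and loci found by their neighbours (diamonds), red and blue where called higher or lower and grey otherwise. The called features run from -0.66 for Xirp2 to 0.56 for Pdlim3. Wide intervals belong to rows with few counts, such as Lmod3, and also to the Lmod2 locus, whose si-NC libraries were far apart.

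Summed over the gene rows, the thin filament members held 13020 to 13150 CPM in si-NC and 13860 to 14250 CPM in si-DYRK1A libraries, most of which was Actc1. The thick filament rows, nearly all Myl3, summed to 2277 to 2525 and 2168 to 2204 CPM, so that neither of these pairs of ranges overlapped, and the thick filament sum was the lower in si-DYRK1A libraries. The Z-disc and I-band rows summed to 9800 to 10530 and 10140 to 10190 CPM, and the chaperones to 837.8 to 952.2 and 887.3 to 908.6 CPM, and these ranges overlapped. These sums leave out what lay under covering transcripts and compare libraries, not genes.

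A list of 82 other genes of the sarcomere and its attachments was set beside the members. Of these, 44 were tested, 5 rose and 4 fell, beside 8.03% and 7.19% of all tested features, with a median log2 fold change of 0.01. Those that rose were the intermediate filament protein synemin Synm (log2 fold change 0.66, SE 0.0518, edgeR adjusted p = 1.2e-08), the myosin phosphatase subunit Ppp1r12b (0.41), the transcription factor Srf (0.38), vinculin Vcl (0.26) and the cytoskeletal tropomyosin Tpm4 (0.16). Those that fell were Klhl41, which stabilizes thin filament proteins (-0.33), the small heat shock proteins Hspb6 (-0.33) and Hspb1 (-0.22), and the co-chaperone Bag3 (-0.21). Only 1 gene of the list fell when either replicate 1 or replicate 2 of si-DYRK1A was omitted. Synm, a partner of desmin in the same filaments, rose while Des fell.

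**Figure D4:**
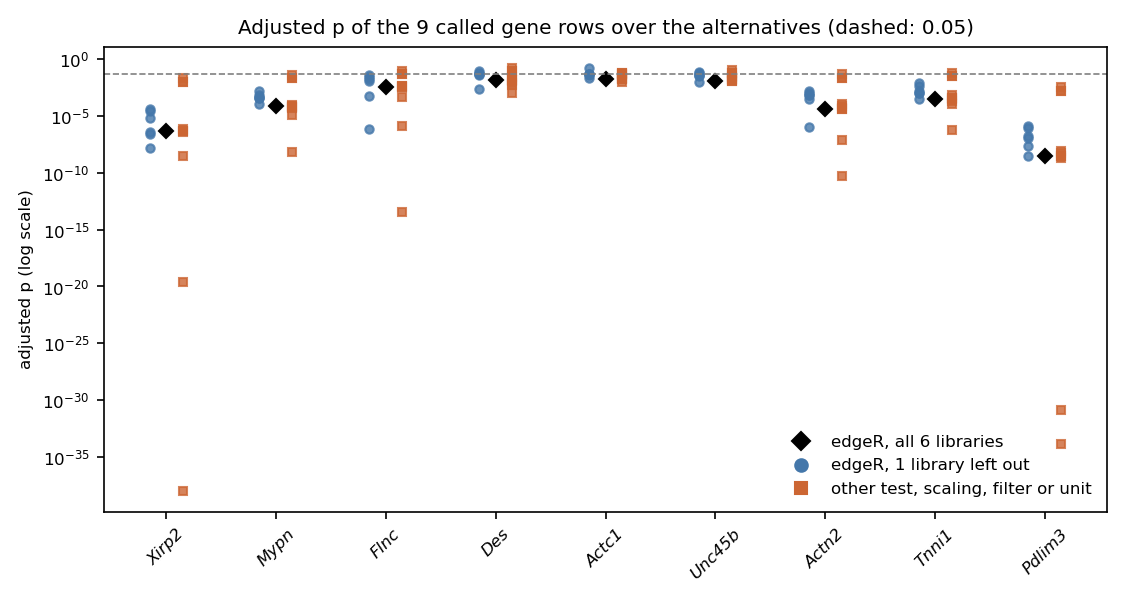
Adjusted p (log axis) of the 9 called gene rows with all 6 libraries (diamonds), with each library left out in turn (circles) and under the other tests, scalings, filters and units (squares), with a dashed line at 0.05. Pdlim3, Actn2, Xirp2 and Mypn stay below the line throughout, whereas Actc1, Des and Unc45b cross it when some libraries are left out.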

How the data were processed

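Per the methods, HISAT2 mapped the reads to Rnor_6.0. The authors deposited raw counts per feature and FPKM, which divide counts by feature length and scale them by library. The counter, its strand setting and the annotation release were not given in the sources used here. In contrast, the submitters' processing notes name Bowtie 0.12.2 and mm8, the labels a TruSeq kit, and the methods a NEBNext kit. Both groups came from the labels.

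Members were matched by symbol. An unannotated transcript was termed covering when it had the member's strand and at least 50% of its span. Features were tested with edgeR 4.0.16, R 4.3.3 (quasi-likelihood F-test, TMM, filterByExpr with a minimum count of 10, a robust fit, two-sided, Benjamini-Hochberg over 15513 features, threshold 0.05), and CPM were scaled by TMM. The SE of edgeR were back-calculated as the absolute log2 fold change divided by the square root of F, and the confidence intervals use them. Alternatives used DESeq2 1.42.0 and limma 3.58.1, where log2(FPKM + pseudocount) understates changes of low features. Scripts were tested on simulated data. The members, lists and tests were chosen with earlier results of these data known. Every member is named, and of the other sarcomere genes the called genes with up to the 5 largest changes in each direction. RefSeq promoters are in GRCr8, and all other positions are in Rnor_6.0 as listed by the authors.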

Additional observations from a re-analysis of the deposited data

How the results depend on the processing

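Limits. Below 10 counts no member could be tested, 3 libraries a group allow no exact p below 0.1, and reads shared by a gene and a covering transcript cannot be assigned. Deviations from the group mean were nearly uncorrelated between libraries of the same replicate number (correlations 0.0578, -0.0261 and -0.00409). This does not settle whether the libraries were paired. With the replicate number as a block, 2269 features and 8 members were called (4 higher, 4 lower), Actc1 had a log2 fold change of 0.13 (adjusted p = 0.0604), and the Titin Z part of the Ttn locus one of 0.22 (adjusted p = 0.002). Over the settings tried for single features, 548 values kept their direction and side of the threshold, 32 lost a call, 7 gained one and 25 changed sign. With limma on log2(FPKM + 1), 1199 features were called (662 higher, 537 lower). Of the members 2 fell, with Pdlim3 and Actn2 among those that rose, and of the other sarcomere genes 4 were called (3 higher, 1 lower). With a pseudocount of 0.1 these were 1180 (655 and 525), 2, and 4 (3 and 1). Without the FPKM filter they were 591 (344 and 247), 4 members (2 higher, 2 lower), 1 covering transcript (1 higher) and 3 other sarcomere genes (2 higher, 1 lower). The cause of these differences was not tested. When 1 library was left out, 1614 to 2210 features and 7 to 9 members were called (3 to 5 higher, 3 to 5 lower), and 1 to 5 other sarcomere genes fell. DESeq2 called 1720 features and 9 members. The sign of Acta1 changed with DESeq2 (-0.000354), RLE normalization (-0.000334), library size only (-0.0211) and no filter on low counts (-0.00448), and that of Synpo2l with its transcript added (0.0315). With 1 library left out, the log2 fold change crossed 0 for Acta1 (-0.0434 to 0.0737), Lmod3 (-0.423 to 0.00367), Hspb7 (-0.0856 to 0.0335), Tpm1 (-0.0415 to 0.0207), Smpx (-0.079 to 0.00299), Tnnc1 (-0.00311 to 0.0639), Ldb3 (-0.0992 to 0.231) and Nebl (-0.00964 to 0.267). It also did for the transcripts over Tnni3 (-0.167 to 0.0956), Tnnt2 (-0.358 to 0.0409), Myom2 (-0.0148 to 0.107), Synpo2l (-0.132 to 0.224), Xirp1 (-0.0763 to 0.2) and Myl2 (-0.211 to 0.107). None of these was called with a library left out.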
